A study of Gossypium hirsutum with 12 samples.

Results

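The transcripts described here are those whose level was lower in the older than in the younger root tip of upland cotton, both in water-stressed and in well-watered seedlings, and they were chosen by a rule on their measured levels. For each gene the read count was divided by the library's total over genes and scaled to CPM, the read count in a library of 1000000 reads. A gene was taken when the log2 ratio of mean CPM (with 0.5 added to each mean) was −1 or lower at 48 h against 24 h in the water-stressed and in the well-watered tips, when its mean over the 12 libraries was at least 5 CPM, and when in each treatment its highest 48 h library lay below its lowest 24 h library. The rule took 49 of the 70477 genes in the table, or 49 of the 27888 with a mean of at least 5 CPM. The falls with age are therefore what chose these genes; they are described below, model calls on them included, and nothing is read from those calls. Tests are read for the difference between stressed and watered tips, called the stress effect.

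Seedlings had grown in vermiculite, the water-stressed ones at a water potential of −1 MPa and the well-watered ones at −0.02 MPa, and the tip of the primary root with its elongation zone was harvested at 48 h and at 24 h after transplanting. The 4 groups of 3 libraries are WS48 and WS24 (the apical 6 mm of stressed roots) and WW48 and WW24 (the apical 12 mm of watered roots). For WS48 the study used WW48 as the control of the same age and WW24 as the control at a like stage of development. WW24 was also its control of the same age for WS24, which had no control at a like stage. Each library came from pooled tips of a single cultivar, AU90810, and the replicates from independent experiments.

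In a growing root, cells are made in the meristem behind the root cap, expand in the elongation zone and then mature into tissues such as xylem, so a tip is a mixture of cells of many ages. A seedling root taken later is made of cells formed later, from a plant that has used more of its seed reserves. Upland cotton carries 2 subgenomes, A and D, each with its own copy of most genes, and the letter after Gh_ in a gene's ID gives the subgenome and the digits after it the chromosome. In bulk tips a lower level can mean fewer cells of a type or less RNA per cell, and the 2 cannot be told apart here; the stressed and watered tips also differ in length. How reads shared by near-identical A and D copies were counted was not given in the sources used here, which limits every value given for a single gene.

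The sources used here give a function to 1767 genes, and only 1 of the 49 is among them: Gh_A09G2067, beta-xylosidase 1, an enzyme that releases xylose from polysaccharides of the cell wall. The other members are given by their IDs, and no role is assigned to them. Of 26 groups formed by words in those functions (marker genes of cell types and families of enzymes, regulators and stress proteins), 25 held no member, which says nothing of the families to which the other 48 genes belong.

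Between 6433993 and 11316010 reads per library were assigned to genes (median 10000113), and all 49 genes passed the filter on low counts, which kept 43938. The member with fewest reads in a library had 0 counts there (Gh_A13G0416, WW48 replicate 2), and the median of the members' lowest counts was 41. WW24 replicate 2 stood apart from the other WW24 libraries: it was the lowest of the 3 in 52.5% of genes with a mean of at least 5 CPM, and in 17 of the 49 members. Among the members the lowest WW24 library was most often replicate 3 (22 of 49, against 19.1% of the genes of at least 5 CPM). The ratio of WW24 replicate 2 to the mean of the other WW24 libraries ran from 0.313 to 2.56 over the members, with a median of 1.02 (0.908 over the genes of at least 5 CPM). The rule chose members by their lowest WW24 library, so these differences between members and other genes are a description. Among the members the median coefficient of variation within a group was 13.4% in WS48, 8.82% in WS24, 19.5% in WW48 and 25.4% in WW24. Over the genes of at least 5 CPM it was 9.57%, 8.75%, 15.2% and 23.7% in the same order. The watered libraries, and WW24 most, thus carried the wider error in both.

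Added up, the 49 genes stood at 2113, 1789 and 1754 CPM in WS48, against 5385, 5677 and 5200 CPM in WS24. In watered tips the sum was 957.3, 817.2 and 1016 CPM in WW48, against 3597, 3146 and 2635 CPM in WW24. The 4 groups were separate in this sum, with WS24 highest, then WW24, WS48 and WW48. Gh_D08G2224, which took more reads than any other member, held 31.0% to 35.6% of the sum in WS48, 30.6% to 32.7% in WS24, 12.9% to 13.4% in WW48 and 18.7% to 25.0% in WW24. Without it the sum ran from 1203 to 1361 CPM in WS48, 3498 to 3834 in WS24, 709.8 to 880.2 in WW48 and 2142 to 2697 in WW24, in the same order.

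**Figure D1:**
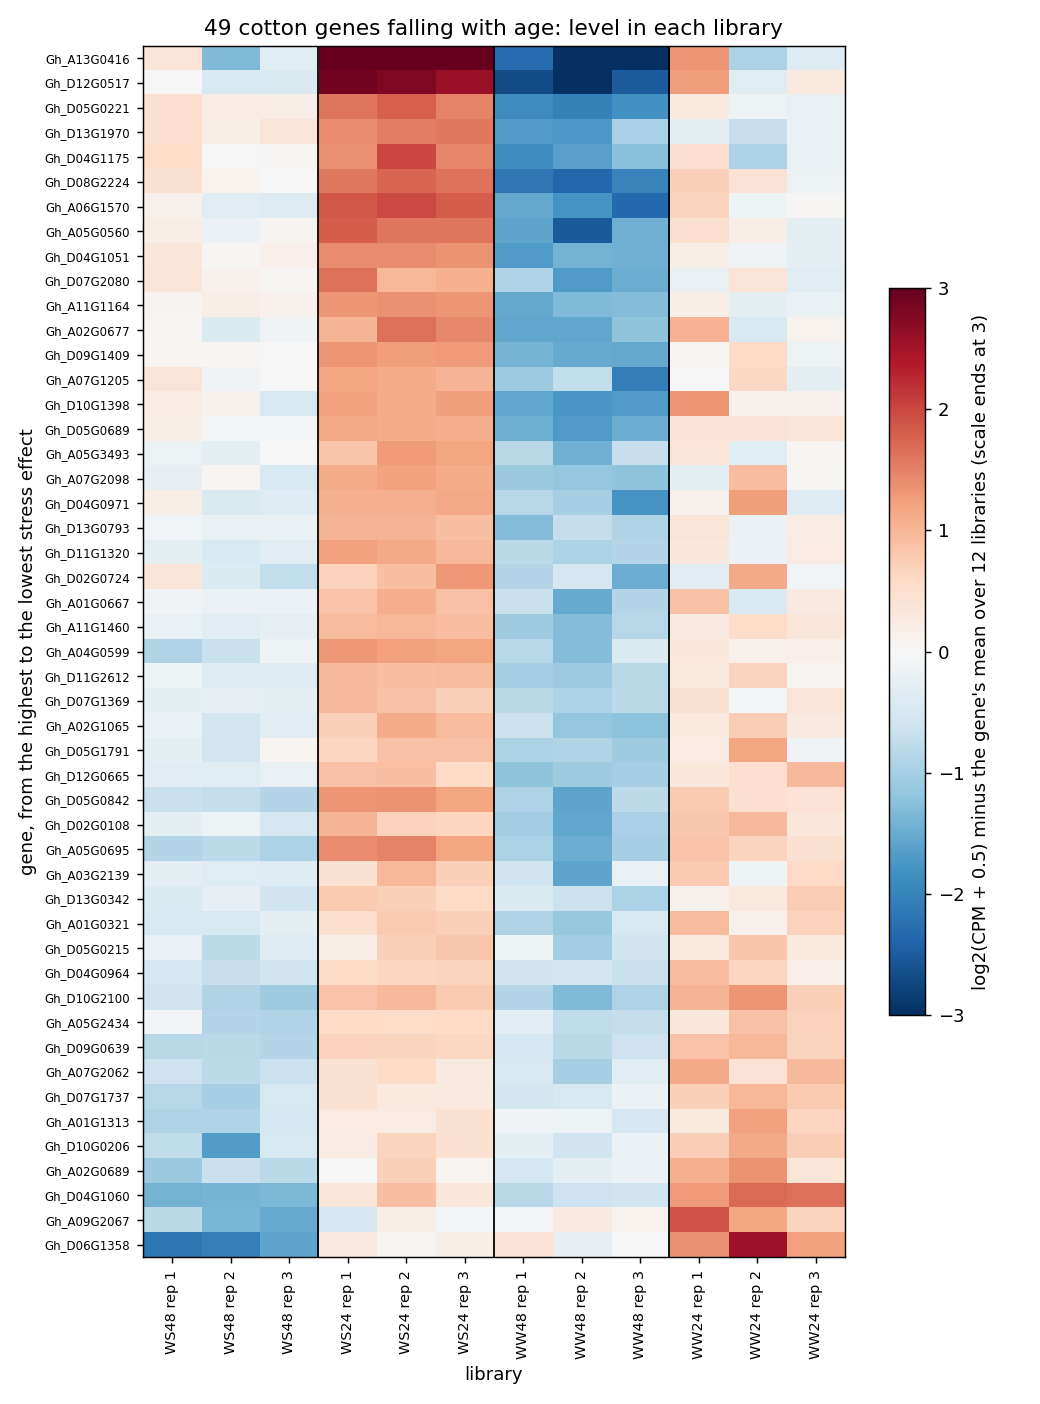
Level of each of the 49 genes (rows, from the highest to the lowest stress effect) in each of the 12 libraries (columns, grouped as WS48, WS24, WW48 and WW24), as log2(CPM + 0.5) minus the gene's mean over the libraries. Red is above and blue below that mean; WS24 is the highest group in 38 genes (upper and middle rows) and WW24 in 11, most of them at the foot, while WW48 is the lowest group in 40 genes and WS48 in 9.

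The falls chosen for were moderate in most of the genes and deep in a few. In stressed tips the log2 ratio of WS48 over WS24 ran from −3.80 to −1.01 with a median of −1.21, so that the median gene kept 42.0% of its 24 h level (range 6.55% to 47.8%). In watered tips the ratio of WW48 over WW24 ran from −3.38 to −1.01 with a median of −1.45, and the median gene kept 34.6% (range 4.31% to 49.0%). The watered fall was the larger in 34 genes and the stressed fall in 15, and in 42 genes the 2 falls lay within 0.5 of each other on the log2 scale. Both falls were of at least 2 in 3 genes and of at least 1.5 in 10, and in 24 the smaller fall was under 1.2. Across the 49 genes the 2 falls had a Pearson correlation of 0.746, and across the 27888 genes of at least 5 CPM one of 0.577; these are descriptions over genes measured in the same libraries, and the rule cuts both axes.

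**Figure D2:**
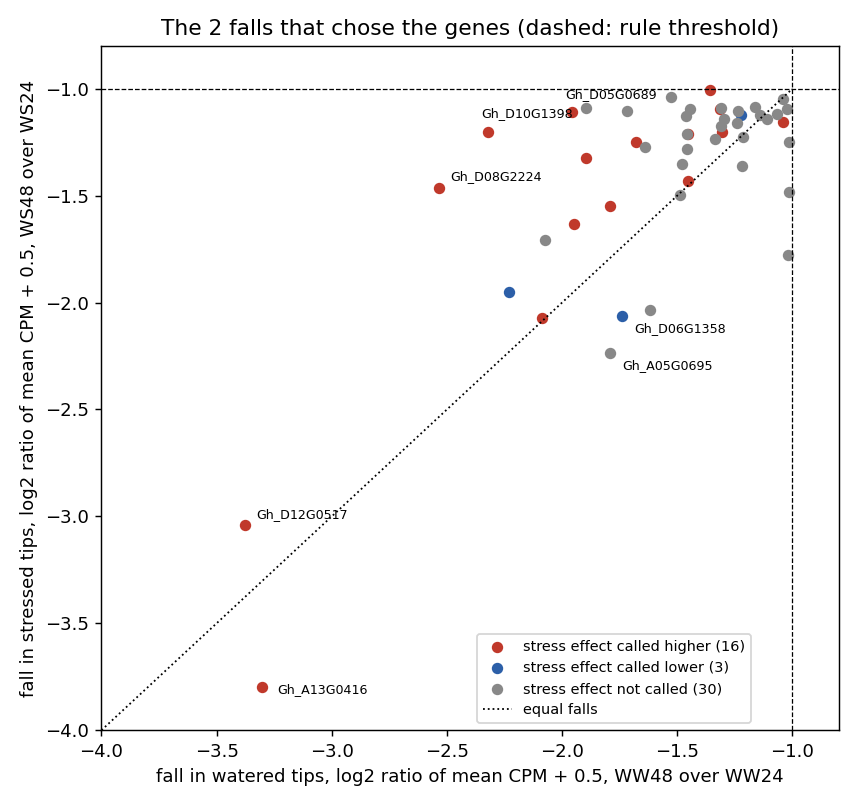
The fall in stressed tips (vertical axis, log2 ratio of mean CPM + 0.5, WS48 over WS24) against the fall in watered tips (horizontal axis, WW48 over WW24) for the 49 genes, coloured by the call for water stress; dashed lines mark the rule's threshold of −1 and the dotted line equal falls. Most genes crowd near the threshold, Gh_D12G0517 and Gh_A13G0416 stand apart at the lower left, and of the 16 genes called higher under stress 14 lie on the side where the watered fall is the larger.

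Each arm of the rule alone took more genes, 163 in stressed tips and 233 in watered tips, so the 49 are 30.1% of the stressed arm and 21.0% of the watered arm. Before the condition on overlap 56 genes met both fold conditions, and 7 were then dropped, 6 for overlap in watered tips alone and 1 for overlap in both treatments. All 6 of those would have entered had WW24 replicate 2 been left out. At the threshold of the stressed arm, Gh_A07G1205, Gh_D05G1791 and Gh_D05G0215 were just inside at −1.007, −1.038 and −1.049, and Gh_A08G0460, Gh_D03G1761 and Gh_D07G0134, which met every other condition, were just outside at −0.997, −0.979 and −0.973. At that of the watered arm, Gh_A05G3493, Gh_D11G1320 and Gh_A04G0599 were inside at −1.013, −1.016 and −1.019, and Gh_A11G0125, Gh_A06G0698 and Gh_D11G0733 outside at −0.963, −0.951 and −0.933. Neighbours across the threshold thus differed by a few hundredths on the log2 scale.

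As a further description of the falls, a negative binomial model of all 12 libraries was fitted with edgeR, and a gene was called where the p adjusted by Benjamini-Hochberg was at most 0.05 and the log2 fold change at least 1 in size. It called 31 of the 49 lower in WS48 than in WS24 (background 0.255% of the 43938 genes tested) and 48 lower in WW48 than in WW24 (background 1.26%). The gene not called in watered tips was Gh_D02G0724, whose WW48 libraries at 2.45, 3.26 and 1.44 CPM lay close to the lowest WW24 library (3.87, 11.4 and 4.60 CPM). The stressed count was 13 to 16 when any 1 of the WS48 or WS24 libraries was left out and 49 when WW24 replicate 2 was left out. These contrasts chose the genes, so nothing is read from the counts.

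The deepest falls in both treatments belonged to Gh_D12G0517 and Gh_A13G0416. Gh_D12G0517 was at 73.9, 52.9 and 53.6 CPM in WS48, against 549, 508 and 439 CPM in WS24. In watered tips it was at 10.9, 6.37 and 12.5 CPM in WW48, against 176, 56.7 and 90.1 CPM in WW24. It thus kept 12.1% of its level with age under stress and 9.21% in watered tips, and its stressed tips at 48 h overlapped the watered tips at 24 h. Gh_A13G0416 was at 7.95, 2.07 and 4.57 CPM in WS48, against 79.8, 71.5 and 71.4 CPM in WS24. In watered tips it was nearly without reads at 48 h, with 8, 0 and 2 counts (0.815, 0 and 0.179 CPM) in WW48, against 15.8, 2.83 and 4.42 CPM in WW24. Its 3 WS24 libraries were close together, and its WW24 libraries were spread widely, so its watered fall carries the wider error.

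Gh_A06G1570 fell by nearly the same amount in both treatments, by 2.07 under stress and by 2.09 in watered tips on the log2 scale. It was at 13.6, 9.89 and 9.36 CPM in WS48, against 47.1, 50.8 and 45.4 CPM in WS24, and at 3.97, 3.26 and 2.06 CPM in WW48, against 20.1, 11.4 and 12.9 CPM in WW24. Gh_A05G0560 kept 31.7% of its level under stress and 24.2% in watered tips. In both of these genes the stressed tips were above the watered tips of the same age, with no overlap at either time.

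Gh_D10G2100, Gh_A05G0695 and Gh_D05G0842 fell deeply, and their stress effects, −0.10, 0.38 and 0.42 on the log2 scale, were below the fold required for a call. Gh_D10G2100 was at 128, 104 and 92.7 CPM in WS48, against 350, 378 and 334 CPM in WS24, and at 105, 77.6 and 102 CPM in WW48, against 396, 487 and 321 CPM in WW24. Its stressed and watered libraries overlapped at both times. Gh_A05G0695 was at 28.9, 31.0 and 27.6 CPM in WS48, against 144, 151 and 123 CPM in WS24, and at 27.7, 19.0 and 26.6 CPM in WW48, against 97.6, 86.2 and 73.5 CPM in WW24. Its stressed tips stood above the watered ones at 24 h and met them at 48 h, and it kept 21.0% under stress and 28.5% in watered tips. Gh_D05G0842 kept 24.3% under stress and 32.4% in watered tips. These 2 and Gh_A04G0599 (27.4% under stress, 46.6% in watered tips) were among the 15 genes whose stressed fall was the larger.

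Gh_D08G2224 was the member with most reads. It was at 752, 586 and 544 CPM in WS48, against 1646, 1843 and 1702 CPM in WS24, and at 124, 107 and 136 CPM in WW48, against 900, 737 and 493 CPM in WW24. It kept 36.3% of its level with age under stress and 17.2% in watered tips, and its WS48 libraries lay within the range of WW24. Only Gh_D10G1398, at 41.6% under stress and 16.2% in watered tips, had a wider gap between its 2 falls in this direction. Gh_D05G0689 had close libraries in every group, with 71.9, 60.9 and 60.8 CPM in WS48, against 143, 139 and 137 CPM in WS24, and 22.8, 19.4 and 22.5 CPM in WW48, against 86.9, 86.2 and 82.5 CPM in WW24. All 4 of its groups were separate. The remaining members of high read number, Gh_D11G2612, Gh_A07G2062 and Gh_D07G1369, kept 42.5% to 45.9% under stress and 36.2% to 45.2% in watered tips.

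**Figure D3:**
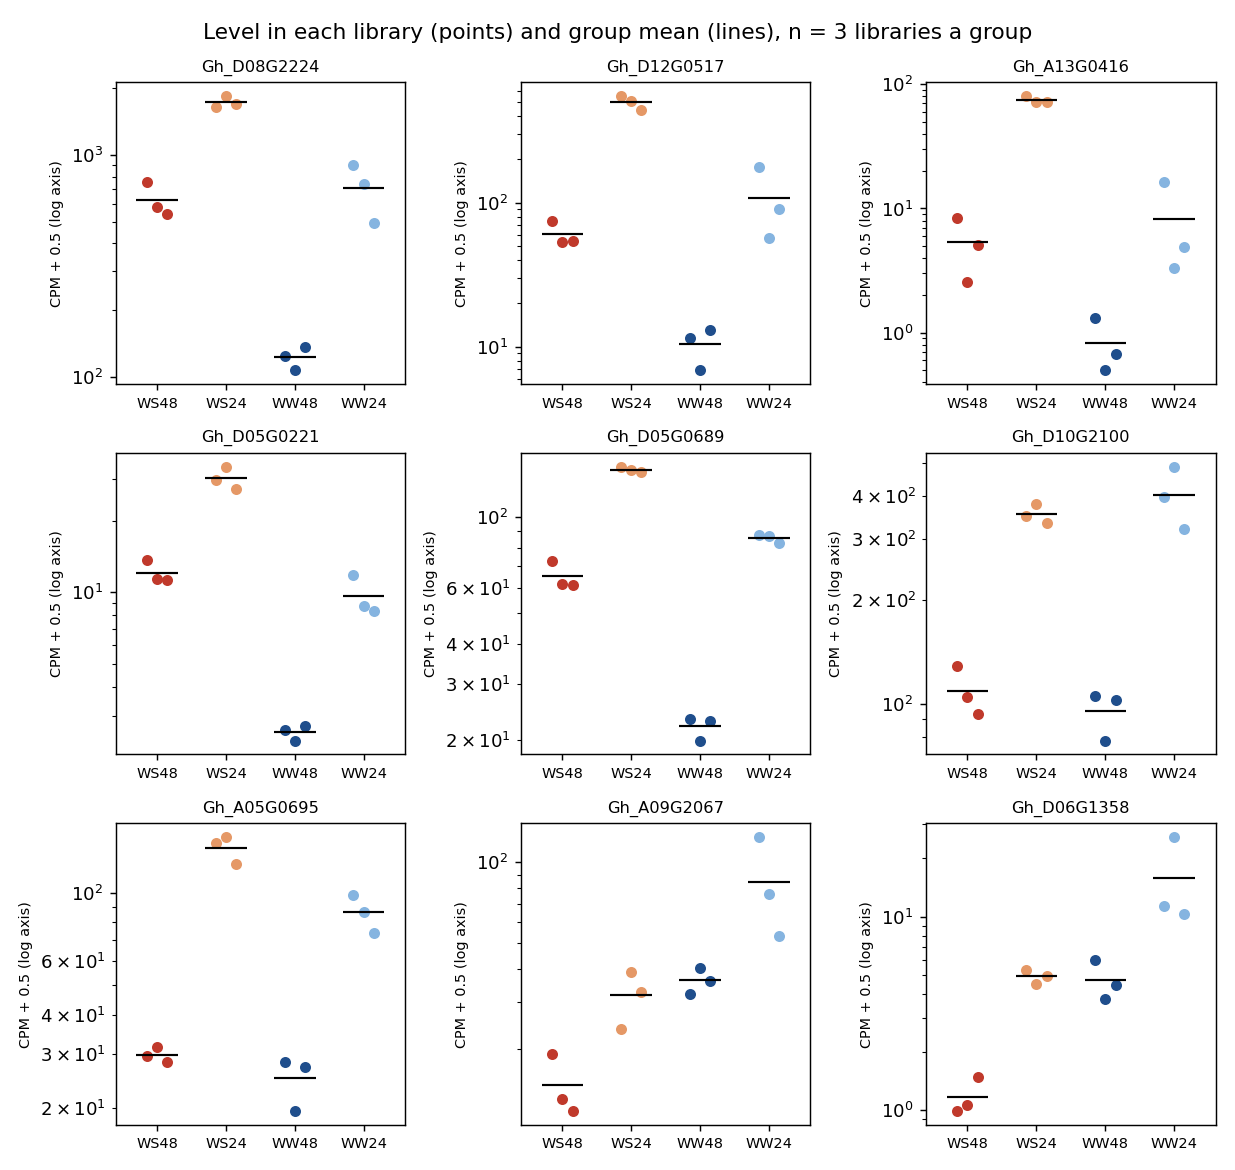
CPM + 0.5 on a log axis in each library (points) for 9 of the genes, with the group mean as a line and the groups in the order WS48, WS24, WW48 and WW24 (n = 3 libraries each). In Gh_D08G2224, Gh_D12G0517, Gh_A13G0416, Gh_D05G0221 and Gh_D05G0689 the stressed tips stand above the watered tips of the same age, in Gh_D10G2100 and Gh_A05G0695 the 2 treatments lie close at 48 h, and in Gh_A09G2067 and Gh_D06G1358 the stressed tips stand below.

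Stressed tips were tested against watered tips over both times together, as the mean of WS48 and WS24 against the mean of WW48 and WW24. The stressed pieces were 6 mm and the watered 12 mm long, so water stress and the length taken cannot be told apart. Higher or lower under stress, and a rise or fall under it, mean only that stressed and watered tips differed in this contrast. In this balanced design that contrast is orthogonal to both age contrasts of the rule, though it uses the same 12 libraries. The spread differed between groups, so this does not make the contrast independent of the choice of genes. Stressed tips were called higher in 16 of the 49 (32.7%, background 3.79%) and lower in 3 (6.12%, background 7.09%). Among genes of at least 5 CPM the background was 2.47% higher and 5.39% lower. Of the 30 others, 18 passed the adjusted p but not the fold (13 of them higher under stress) and 12 did not pass the adjusted p. The log2 fold change was above 0 in 36 members and below 0 in 13, with a median of 0.58, where the median over all genes tested was −0.001 and 49.8% of them were above 0. Leaving out any 1 library gave 15 to 19 higher and 2 or 3 lower.

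The minimum of 5 CPM was set over all 12 libraries, so a gene high in 1 treatment could pass it through that treatment alone. Gh_A02G0677, Gh_A07G1205, Gh_A13G0416, Gh_D02G0724, Gh_D05G1791 and Gh_D07G2080 averaged under 5 CPM in watered tips, and Gh_D06G1358 in stressed tips. In the 42 members with a mean of at least 5 CPM in each treatment, 12 (28.6%) were called higher under stress and 2 (4.76%) lower, where the background of the 25849 genes with such means was 1.61% higher and 3.81% lower.

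The 16 genes that rose under stress were Gh_A13G0416, Gh_D12G0517, Gh_D05G0221, Gh_D13G1970, Gh_D04G1175, Gh_D08G2224, Gh_A06G1570, Gh_A05G0560, Gh_D04G1051, Gh_D07G2080, Gh_A11G1164, Gh_A02G0677, Gh_D09G1409, Gh_A07G1205, Gh_D10G1398 and Gh_D05G0689, in order of the fold. Gh_A13G0416 had the largest log2 fold change of the 49, 3.41 ± 0.511 (SE, edgeR adjusted p = 0.000455), and Gh_D12G0517 the next, 2.32 ± 0.244 (adjusted p = 3.23e-05). For Gh_A13G0416 the fold rests on a watered group with few reads and is the least precise of the 16. Gh_D08G2224 rose by 1.73 ± 0.159 (adjusted p = 1.15e-05), and Gh_D05G0689, the smallest of the 16, by 1.05 ± 0.0913 (adjusted p = 7.16e-06). Gh_A07G1205, at 1.17, was at 0.96 and not called when WW48 replicate 3 was left out. In all 16 the 3 WS48 libraries were above the 3 WW48 libraries, and in 14 the WS24 libraries were above the WW24 libraries, arrangements that 27.8% and 27.9% of genes of at least 5 CPM also showed.

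Gh_D05G0221, Gh_D13G1970 and Gh_D04G1175 had the next largest stress effects. Gh_D05G0221 was at 13.1, 10.9 and 10.7 CPM in WS48 and 29.1, 33.3 and 26.6 CPM in WS24, against 2.14, 1.87 and 2.24 CPM in WW48 and 11.3, 8.24 and 7.86 CPM in WW24. Its stress effect was 1.99 ± 0.13 on the log2 scale (edgeR adjusted p = 7.56e-07). Gh_D13G1970 was at 49.4, 40.8 and 45.9 CPM in WS48 and 94.4, 104 and 106 CPM in WS24, against 10.6, 10.3 and 17.7 CPM in WW48 and 28.7, 21.5 and 30.5 CPM in WW24. It was the only member whose WS48 libraries all lay above the WW24 libraries, and its stress effect was 1.78 ± 0.135 (adjusted p = 2.61e-06). Gh_D04G1175 was at 26.1, 17.7 and 18.2 CPM in WS48 and 47.0, 73.2 and 49.7 CPM in WS24, against 4.48, 5.44 and 7.09 CPM in WW48 and 25.0, 8.98 and 15.2 CPM in WW24, an effect of 1.74 ± 0.221 (adjusted p = 0.000134). WW24 replicate 2 was its lowest library of that group.

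**Figure D4:**
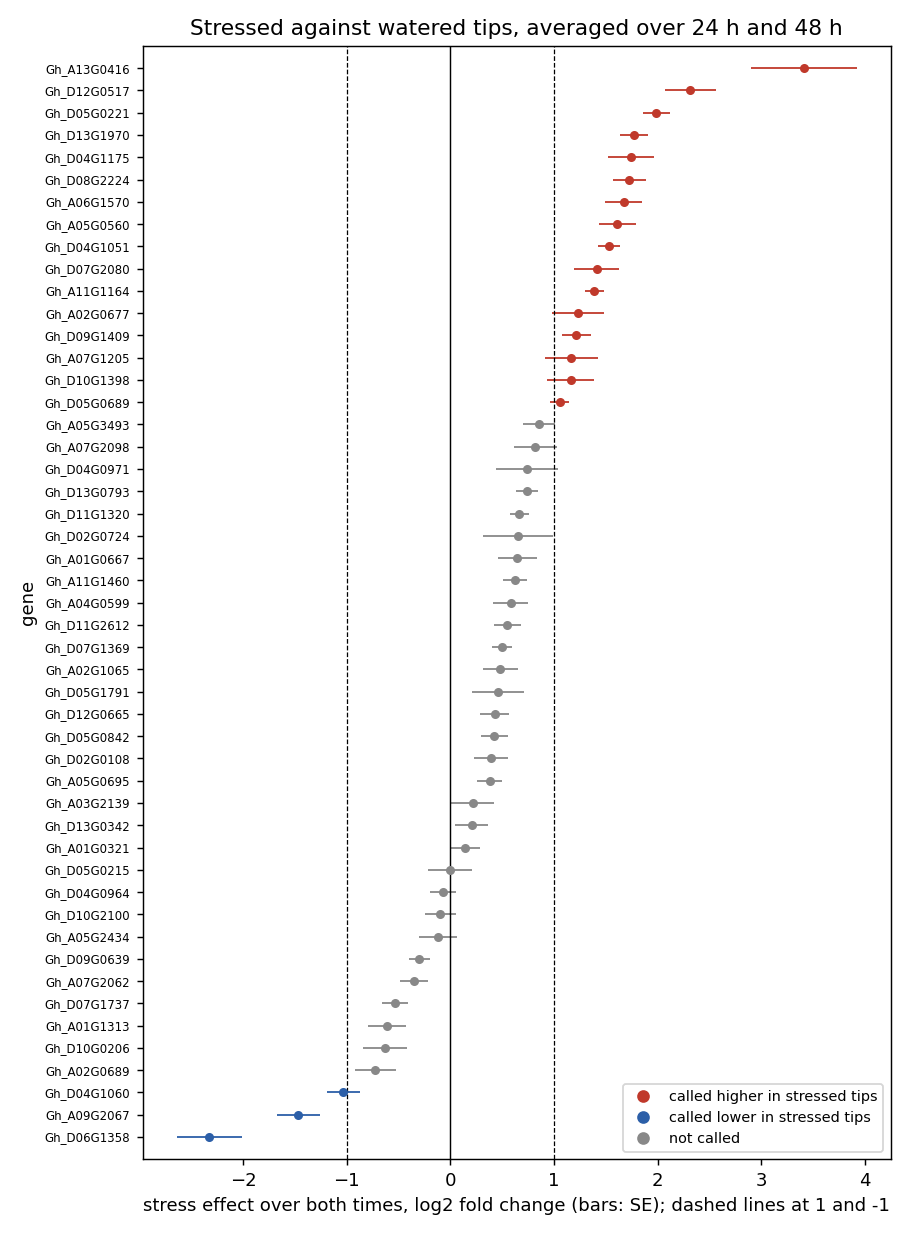
Log2 fold change of stressed over watered tips, averaged over 48 h and 24 h, for the 49 genes (points, with the standard error as bars), from the highest at the top to the lowest; dashed lines mark 1 and −1. The 16 genes called higher (red) lie between 1.05 and 3.41, the 3 called lower (blue) between −2.33 and −1.03, and the 30 not called (grey) between them, most of them above 0.

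The 16 called higher kept a median of 40.3% of their level with age under stress and 24.8% in watered tips; the 30 not called kept 42.5% and 39.6%. The genes not called with the highest values were Gh_A05G3493 at 0.85, Gh_A07G2098 at 0.82 and Gh_D04G0971 at 0.74, and those nearest 0 were Gh_D05G0215, Gh_D04G0964, Gh_D10G2100 and Gh_A05G2434, between −0.12 and −0.005. Gh_D13G0793, Gh_D11G1320, Gh_D02G0724, Gh_A01G0667, Gh_A11G1460, Gh_A04G0599, Gh_D11G2612 and Gh_D07G1369 followed between 0.50 and 0.74, and Gh_A02G1065, Gh_D05G1791, Gh_D12G0665, Gh_D05G0842, Gh_D02G0108, Gh_A05G0695, Gh_A03G2139, Gh_D13G0342 and Gh_A01G0321 between 0.14 and 0.48. Gh_D09G0639, Gh_A07G2062, Gh_D07G1737, Gh_A01G1313, Gh_D10G0206 and Gh_A02G0689 lay between −0.73 and −0.30.

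Tested at each time, stressed tips were called higher in 16 members at 48 h (background 3.18%) and in 11 at 24 h (background 3.75%), and lower in 2 at 48 h (background 5.98%) and in 3 at 24 h (background 4.93%). Each of these comparisons shares its libraries with the rule, 1 arm with each age contrast. The 16 at 48 h were the same 16 genes as over both times, and the 11 at 24 h were among them; Gh_A02G0677, Gh_A07G1205, Gh_D05G0689, Gh_D09G1409 and Gh_D10G1398 were called at 48 h alone. For Gh_D05G0689 the log2 fold change was 1.54 ± 0.132 at 48 h (edgeR adjusted p = 2.16e-05) and 0.56 ± 0.127 at 24 h (adjusted p = 0.0118). For Gh_D10G1398 it was 1.89 ± 0.357 (adjusted p = 0.00433) and 0.43 ± 0.293 (adjusted p = 0.355). A call at 1 time does not show that the effects at the 2 times differ. That difference equals the difference between the 2 falls with age, both of which the rule limited, so for the members it is a description. Over all genes tested edgeR called it in 0 (5160 at an unadjusted p under 0.05), limma-voom in 0 and DESeq2 in 403, of which Gh_D08G2224 was the only member.

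The 3 members that fell under stress were Gh_D06G1358, Gh_A09G2067 and Gh_D04G1060, and in all 3 the stressed libraries lay below the watered libraries of the same age, as they did in 18.7% of genes of at least 5 CPM at 48 h and in 11.0% at 24 h. Gh_D06G1358 was at 0.491, 0.565 and 0.979 CPM in WS48 and 4.80, 4.01 and 4.46 CPM in WS24, against 5.5, 3.26 and 3.95 CPM in WW48 and 10.9, 25.3 and 9.81 CPM in WW24. It fell under stress by 2.33 ± 0.312 (log2 fold change with SE, edgeR adjusted p = 0.000209), and its WS24 and WW48 tips overlapped. Gh_D04G1060 was at 1.87, 1.88 and 1.96 CPM in WS48 and 7.58, 11.3 and 7.47 CPM in WS24, against 3.06, 3.57 and 3.68 CPM in WW48 and 14.8, 20 and 19.2 CPM in WW24. Its effect of −1.03 ± 0.161 (adjusted p = 0.000598) was close to the threshold of 1, and it was −0.94 without WW24 replicate 2 and −0.98 without WS24 replicate 1 or replicate 3, which ended the call.

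Gh_A09G2067, the beta-xylosidase 1 gene, was at 18.7, 12.5 and 11.2 CPM in WS48 and 23.3, 38.4 and 32.2 CPM in WS24, against 31.7, 39.9 and 35.4 CPM in WW48 and 124, 75.6 and 52.6 CPM in WW24. The WW24 libraries spread widely, and WS24 overlapped WW48. It fell under stress by 1.47 ± 0.211 (log2 fold change with SE, edgeR adjusted p = 0.000344), and it was the only member with watered tips of both ages above the stressed tips in their means. Among the genes with a function are 10 glycosidases of the cell wall, all of them called by the study in the same libraries. Of these 3 were called higher (background 3.79%) and 7 lower (background 7.09%) under stress. The median log2 fold change of the 10 with age was 0.09 in stressed and −0.40 in watered tips. The other gene named beta-xylosidase 1, Gh_D09G2276, stood at 2.51 ± 0.577 CPM in WS48 and 2.87 ± 0.149 in WS24, against 18.4 ± 9.90 in WW48 and 15.7 ± 6.07 in WW24 (SD, n = 3 each). Its log2 fold change with age was −0.20 in stressed tips (adjusted p = 0.876) and 0.07 in watered tips (adjusted p = 0.93); Gh_A09G2067 was chosen for its fall, and its change with age was not set against this one by a test.

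By group means the 49 genes fell into 5 orders. The rule allowed only orders with WS24 above WS48 and WW24 above WW48. In 32 genes WS24 was highest, then WW24, WS48 and WW48, both younger groups before both older ones. In 6 genes (Gh_A11G1164, Gh_D04G1051, Gh_D04G1175, Gh_D05G0221, Gh_D07G2080 and Gh_D13G1970) WS48 stood above WW24, and the stressed tips of both ages came before the watered ones; all 6 were called higher under stress. In 8 genes (Gh_A01G1313, Gh_A02G0689, Gh_A07G2062, Gh_D04G1060, Gh_D06G1358, Gh_D07G1737, Gh_D09G0639 and Gh_D10G0206) WW24 was highest and WS48 lowest. Gh_A05G2434 and Gh_D10G2100 had WW24 highest and WW48 lowest, and Gh_A09G2067 had WW24, WW48, WS24 and WS48 in that order. Neighbours in these orders often did not differ beyond their spread, and WS48 and WW24 overlapped in 21 genes. WS48 lay wholly below WW24 in 27 (background 11.3% of genes of at least 5 CPM) and wholly above it in 1 (background 24.9%). The rule chose low WS48 and high WW24 libraries, so these counts are a description. Over all 49 WS24 lay wholly above WW24 in 24 and below it in 5, and WS48 wholly above WW48 in 30 and below it in 5, beside the backgrounds of 27.9%, 11.0%, 27.8% and 18.7% given above.

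The study called a transcript differentially accumulated when WS48 differed in the same direction from both watered controls. By that definition 0 of the 49 was increased (background 1.64%) and 2 were decreased (background 2.16%), Gh_A09G2067 and Gh_D06G1358. No member reached the fold above WW24, whichever p is used, and edgeR, DESeq2 and limma-voom each gave 0 increased. Without WS48 replicate 3 there was 1 decreased and 1 called lower at 48 h. The 16 genes higher under stress were all called above WW48 at 48 h, and their log2 fold changes of WS48 over WW24 ran from −0.98 to 0.60, below the fold required. Because WS48 over WW24 holds the fall with age that chose these genes, the count is a description.

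The members came from most of the genome. By their IDs 20 are on the A and 29 on the D subgenome, where the genes of at least 5 CPM divide into 49.0% and 50.0%, and 21 of the 26 chromosomes held at least 1, the exceptions being A08, A10, A12, D01 and D03. Chromosomes D04 and D05 held 5 each, 10.2% of the members, where they hold 2.87% and 5.81% of the genes of at least 5 CPM. There were 4 couples of members with ID numbers within 20 steps of each other, namely Gh_A02G0677 and Gh_A02G0689, Gh_D04G0964 and Gh_D04G0971, Gh_D04G1051 and Gh_D04G1060, and Gh_D05G0215 and Gh_D05G0221. Gh_A02G0677 was called higher under stress at 1.23 where Gh_A02G0689 was at −0.73, and neither Gh_D04G0964 nor Gh_D04G0971 was called. Gh_D04G1051 was higher by 1.53 ± 0.106 (edgeR adjusted p = 1.25e-06) where Gh_D04G1060, 9 steps on, was lower, and Gh_D05G0221 was higher by 1.99 where Gh_D05G0215, 6 steps before it, was at −0.005 ± 0.211 (adjusted p = 0.989). Between them lie 1 to 4 genes of at least 5 CPM, none of which met the rule.

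Markers of cell types differed between stressed and watered tips as well, and their part in the result above was not tested. The background for the stress calls below was 3.79% higher and 7.09% lower over all genes tested. The 8 annotated genes of dividing cells summed to 794 to 931 CPM in WS48 and 992 to 1073 in WS24, against 290 to 323 in WW48 and 366 to 417 in WW24; 4 were called higher under stress, all of them tubulin beta 8 genes, and 3 lower, both cyclins of the P3 type and a kinesin. Over the 8 genes the median log2 fold change with age was −0.26 in stressed and −0.35 in watered tips. Most of their sum in WS48 came from the tubulin beta 8 genes, with means of 117 to 261 CPM. The other genes of the list had means of 6.12 to 46.7 CPM there. The 9 genes found by the words for xylem, laccases and a xylem peptidase, summed to 75.1 to 145 CPM in WS48 and 28.9 to 45.0 in WS24. In watered tips they summed to 740 to 1415 CPM in WW48 and 212 to 771 in WW24, and all 9 were called lower under stress. Their median with age was 1.29 in stressed and 0.59 in watered tips. Most of the xylem sum in WW48 came from the laccase 14 genes, with means of 291 to 355 CPM. In watered tips the laccase 11 genes (−0.56 and −0.80) and the laccase 7 gene Gh_A04G0744 (−1.04) were lower with age, and the others higher. The single root cap gene was at 6.18 to 7.73 CPM in WS48 and 7.68 to 9.03 in WS24, against 2.06 to 2.45 in WW48 and 0.615 to 2.47 in WW24. The 3 genes of photosynthetic tissue were listed as a possible sign of shoot RNA, which was not tested. They summed to 3.48 to 5.99 CPM in WS48 and 10.4 to 12.4 in WS24. In watered tips the sum was 2.18 to 3.86 CPM in WW48 and 1.97 to 6.1 in WW24. Of the 3 genes 2 were called higher and 1 lower under stress. Their median log2 fold change with age was −1.74 in stressed and −0.07 in watered tips. Under stress 3 of 5 root hair genes were called higher and 2 lower, and 8 of 19 phloem genes lower. The genes found by the words for seed reserves summed to 3809 to 4669 CPM in WS48 and 3785 to 4551 in WS24. In watered tips they summed to 2909 to 4287 CPM in WW48 and 5249 to 6689 in WW24. The list of lipid transfer proteins gave nearly the same sums. It stood at 3776 to 4629 CPM in WS48, 3760 to 4516 in WS24, 2906 to 4286 in WW48 and 5248 to 6688 in WW24. The seed reserve sums were therefore not read as a level of reserves. Of the 28 genes tested in the seed reserve list, 5 were called higher and 15 lower under stress. In it 5 were called higher in WS48 than in WS24, and 8 lower in WW48 than in WW24 (background 1.26%). The share of all genes called higher in WS48 than in WS24 was not computed, so nothing is read from the 5. The lipid transfer list gave 4, 15, 5 and 8 of 27 for the same calls. The study had itself called most of the marker genes in the same libraries.

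Genes that rose with age in both treatments, taken by the mirrored rule, numbered 307, and their stress calls were divided otherwise: 4 (1.30%) were higher in stressed tips and 144 (46.9%) lower, with a median log2 fold change of −1.25. Genes of a single arm of the rule lay between the background and the 49 in the higher direction. Of the 114 that fell in stressed tips alone 32 (28.1%) were higher and 12 (10.5%) lower under stress, with a median of 0.41, and of the 184 that fell in watered tips alone 26 (14.1%) were higher and 10 (5.43%) lower, with a median of 0.23. These sets were chosen by the same libraries, and the differences between them were not tested.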

How the data were processed

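RNA from 12 libraries was sequenced, 3 in each of WS48, WS24, WW48 and WW24. The authors aligned the reads to build NAU-NBT v1.1 of upland cotton, and the submitters' processing notes name HISAT2 1.0 and HTSeq 0.6.1. The authors deposited whole-number read counts for 70477 genes, used here, beside normalized values (a score rounded to whole numbers), which were not used. The strand setting of the counting was not given in the sources used here. Reads in 4 lines that name no gene (31.2% to 39.1% of a library) were left out. Columns were matched to samples by name, and 0 columns of other samples were found.

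The software was edgeR 4.0.16 and limma 3.58.1 under R 4.3.3. edgeR's default filter (a minimum count of 10 and total of 15) left 43938 genes, TMM factors were 0.857 to 1.06, and 1 model of the 4 groups gave quasi-likelihood tests, adjusted by Benjamini-Hochberg over all genes fitted. Calls needed an adjusted p of at most 0.05 and a change of at least 1 on the log2 scale, the study's thresholds. The main test was the mean of both stressed groups against the mean of both watered groups. The fit was tested on simulated data. CPM used library totals over genes. Replicates are from independent experiments, and 6433993 to 11316010 counts per library limit the precision of low genes.

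The members, gene lists, tests and alternatives were chosen with earlier results of these data known. Named by rule were members with a function, the 8 with the highest mean CPM, the 8 with the largest smaller fall, the 5 highest and 5 lowest called stress effects and the 3 genes on each side of the fold threshold; the others were named after their values were seen, to account for all. Functions came from the study's supplementary tables by word search, and the reference gene table matched 0 of the IDs, so no sequences are shown. Alternatives were RLE or library size in place of TMM, no filter or a minimum of 3 CPM in 1 library, DESeq2 1.42.0, limma-voom, the compared groups alone, a replicate block, an adjusted p of 0.01, each library left out, other settings of the rule and, chosen after seeing the data, a minimum of 5 CPM in each treatment.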

Additional observations from a re-analysis of the deposited data

How the results depend on the processing

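With a minimum of 5 CPM in each treatment, chosen after seeing the data, 12 members were higher and 2 lower under stress. Under the other alternatives run 15 to 19 were higher and 2 or 3 lower, and the same 16 genes were among those called higher in each, except without WW48 replicate 3, where Gh_A07G1205 was missing. Gh_D04G1060 was not called with library size in place of TMM (−0.94), without WW24 replicate 2 (−0.94) or without WS24 replicate 1 or 3 (−0.98 each). With library size the median change over all genes, on the log2 scale, was 0.131 in WW48/WW24, 0.147 in WS24/WW24 and 0.088 for the stress effect, each within 0.01 of 0 with TMM, and the sign turned for Gh_D10G2100 (0.00) and Gh_D05G0215 (0.09), neither of them called. With 1 library left out Gh_D10G2100 ran from −0.18 to 0.04 (above 0 without WW24 replicate 2), and Gh_D05G0215 from −0.10 to 0.17 (above 0 without WS48 replicate 2, WS24 replicate 1, WW48 replicate 1 or WW24 replicate 2); the value of Gh_D05G0215 was 0.00 with no filter and 0.01 with limma-voom. Of 480 stress values of 24 named members, 466 kept sign and call. The size of the set depended on the settings of the rule: 61 genes with TMM-scaled and 62 with RLE-scaled CPM, 35 and 70 with a minimum of 10 and 1 CPM, 53 and 41 with 0.1 and 1 added to the mean, and 47 to 60 with 1 library left out (60 without WW24 replicate 2, 45 of them members). Genes called lower by edgeR in both age contrasts numbered 36, of which 31 were members. With the compared groups alone 49 members were called lower in WS48/WS24 and 28 in WW48/WW24, and with 1 library left out 13 to 49 and 38 to 48. At an adjusted p of 0.01 16 were lower in WS48/WS24, 1 lower in WS48/WW48 and 1 a decreased DAT, a transcript called in the same direction against both watered controls. Without WS48 replicate 3 the last 2 counts were again 1, within a range of 1 to 2. The causes were not tested. The deviations of same-numbered libraries had r from −0.179 to 0.38 over 18 couples, 6 of them over 0.1. Couples of unlike number had r from −0.45 to 0.394 (36 couples). The numbers were not taken to pair the samples, and a pairing was not excluded. With a replicate block 16 members were higher and 3 lower under stress, 35 lower in WS48/WS24 and 48 lower in WW48/WW24.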
